A study of Mus musculus with 7 samples.

Results

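Expression of 10 genes of the bone marrow stroma was followed in sorted hematopoietic stem cells (HSCs), the cells that the stroma supports: Cxcl12, Kitl, Pdgfra, Pdgfrb, Lepr, Col1a1, Col1a2, Col3a1, Sparc and Bgn. They were chosen by name, with earlier results of these data known. Each was read from a probe set that carries its symbol and no other, and all 10 had 1 such probe set, among 19938 genes tested. HSCs were isolated by FACS from crushed bones of female C57BL/6 mice as cells that were Lin-, Sca1+, cKit+, CD150+ and CD48-, after an enrichment for c-Kit. The control group was Cebpa flox/flox (Cebpa fl/fl, 3 mice with 1 array each), and the deleted group was Cebpa flox/flox; Mx1Cre (Cebpa Δ/Δ, 4 mice), each array being named here by genotype and replicate number. Both groups, 10 to 12 weeks old, received 3 injections of pIpC, an inducer of interferon, and were killed at day 18. Per the methods, mice received the antibiotic ciprofloxacin after deletion of Cebpa. Mx1Cre is driven by an interferon-responsive promoter that is not restricted to blood cells, and the control mice carried the floxed alleles and received pIpC but are not labelled with a Cre. The lineage antibodies named in the methods recognise blood cells and include none against stroma. Amplified RNA was measured on Mouse Gene ST arrays from Affymetrix, and intensities are given on the log2 scale after Robust Multichip Average (RMA) processing by the authors.

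In the marrow, HSCs lie beside perivascular mesenchymal cells that express the leptin receptor and platelet-derived growth factor receptors and are the main local source of CXCL12 and stem cell factor. CXCL12 holds HSCs in the marrow through the receptor CXCR4 on their surface, and stem cell factor, the product of Kitl, signals through c-Kit. The same mesenchymal cells and the osteoblasts secrete type I and type III collagen together with collagen-binding proteins such as SPARC and biglycan, so collagen transcripts are a usual sign of stromal RNA in a blood sample.

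Of 13 measured HSC markers other than Cd48, 13 had means above the median gene level of 5.86 in both genotypes. Probe sets differ in brightness, so such levels are descriptive. Cebpa itself, the targeted gene, was lower in Cebpa Δ/Δ HSCs by a log2 fold change of -0.41 (SE 0.07), or 1.33-fold. Its means were 5.64 in Cebpa fl/fl and 5.22 in Cebpa Δ/Δ HSCs, both below the median gene level. The paper reports the allele as fully recombined at the time of analysis. RMA values do not reach 0, so this signal does not measure how much transcript remained. Cd48, whose protein the sort excludes, went against the gate in Cebpa Δ/Δ HSCs, at 7.77 against 5.02 in Cebpa fl/fl HSCs. Array medians lay between 46.2 and 50.4 on the linear scale, mean correlations with the other arrays lay between 0.979 and 0.985, and the lowest of these belonged to fl/fl 1 and Δ/Δ 3. In a bulk array, more cells of a type and more RNA per cell cannot be told apart.

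Of the 10 genes, 3, namely Cxcl12, Pdgfrb and Sparc, were higher in Cebpa Δ/Δ HSCs at the thresholds the study used, a p under 0.05 and a change over 1.5-fold. The study does not say whether its p was adjusted, and limma's unadjusted p was used here. None was lower. Over all genes tested, 1.57% were higher and 0.617% lower at these thresholds. Because the 10 genes were chosen with earlier results known, their count beside these shares is descriptive only. No gene passed limma's adjusted p of 0.05 (0%), and the 3 genes had Benjamini-Hochberg adjusted p-values of 0.663, 0.337 and 0.663, so that each is a call before correction only. At an unadjusted p under 0.05 limma called 1492 genes, 3 of them among the 10. The other 7 genes, among them all 3 collagen genes, did not pass. The median log2 fold change of the 10 genes was 0.09, against 0.00 for all genes.

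**Figure D1:**
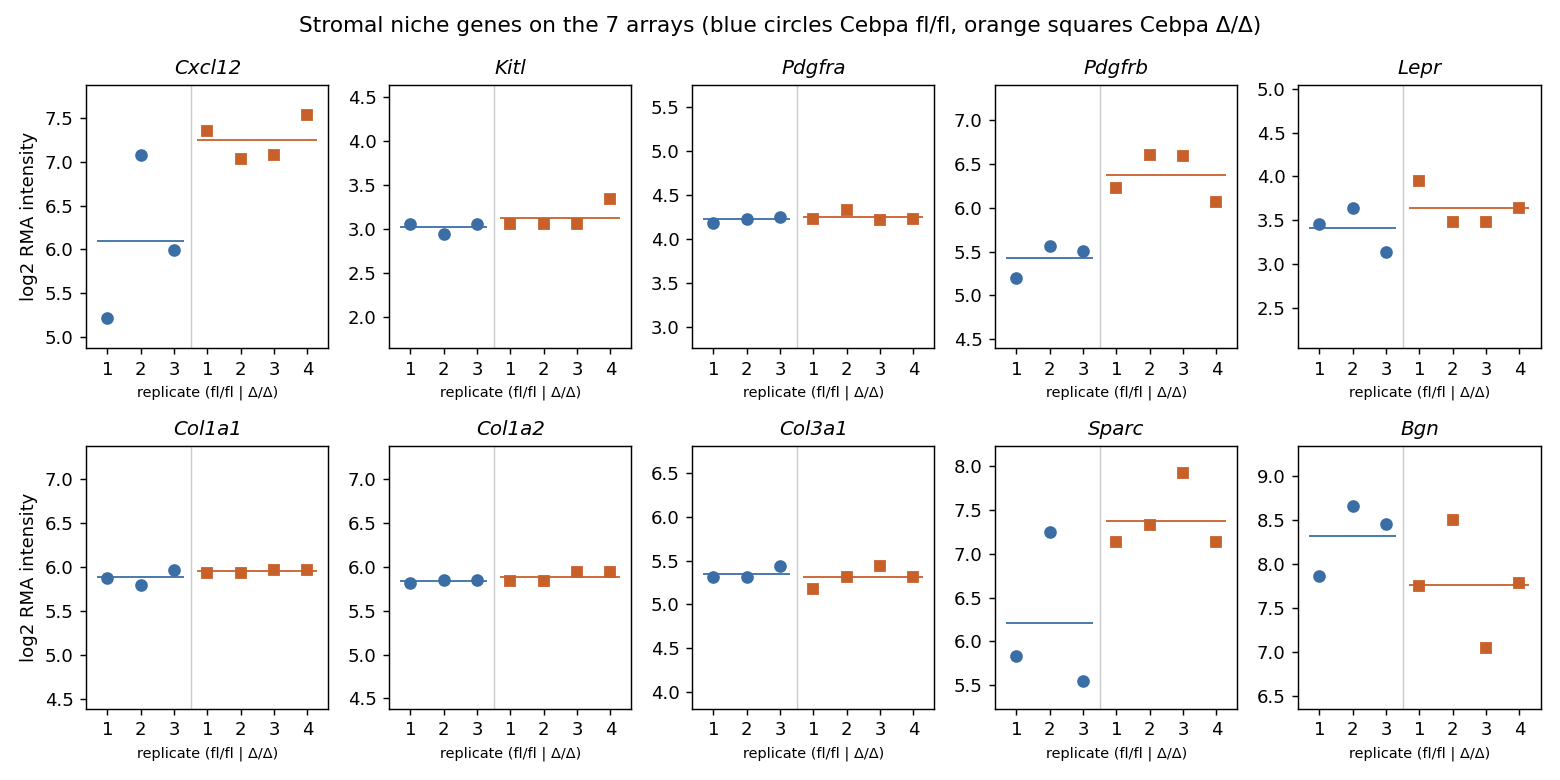
Log2 RMA intensity (vertical axis, each panel spanning 3 log2 units) of the 10 stromal niche genes on the 7 arrays (horizontal axis, replicate numbers); blue circles are Cebpa fl/fl, orange squares Cebpa Δ/Δ and lines the group means. Cxcl12 and Sparc are high in fl/fl 2 as in Cebpa Δ/Δ HSCs, Pdgfrb separates the genotypes, and the collagen genes stay within 0.26 log2 units over all arrays.

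The sequences just before the start of 4 of these genes are shown to set genes that were higher in Cebpa Δ/Δ HSCs (Cxcl12, Sparc) beside collagen genes that were not called (Col1a2, Col3a1). They come from RefSeq (build GRCm38.p6), whose table held 8 of the 10 genes and did not list Pdgfrb and Col1a1. Each window holds the 250 bases before the start, 5′ to 3′ on the gene's strand, in lower case. Capitals mark matches to 5 short motifs, searched on both strands. Forms of the C/EBP motif were written as TTGCNNAA and, with A in place of its G, as TTACNNAA. The TATA box was written as TATAAA. The GC box was written as GGGCGG, which appears as its reverse complement where the match is on the other strand. The CCAAT box was searched by the letters of its name. None of the motifs contains another, and the GC boxes of Cxcl12 nearest its start overlap each other.
Cxcl12, chr6:117168285-117168534, plus strand: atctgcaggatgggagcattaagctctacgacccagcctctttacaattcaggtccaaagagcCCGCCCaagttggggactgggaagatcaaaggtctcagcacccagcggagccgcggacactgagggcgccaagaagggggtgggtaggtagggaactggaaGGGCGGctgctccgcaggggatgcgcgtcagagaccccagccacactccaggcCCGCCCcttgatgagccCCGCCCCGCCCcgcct
Sparc, chr11:55420081-55420330, minus strand: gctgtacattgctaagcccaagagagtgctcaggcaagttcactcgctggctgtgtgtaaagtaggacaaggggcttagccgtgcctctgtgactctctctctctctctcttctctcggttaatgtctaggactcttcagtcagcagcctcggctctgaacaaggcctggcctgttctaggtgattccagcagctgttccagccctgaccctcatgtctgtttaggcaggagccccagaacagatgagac
Col1a2, chr6:4505368-4505617, plus strand: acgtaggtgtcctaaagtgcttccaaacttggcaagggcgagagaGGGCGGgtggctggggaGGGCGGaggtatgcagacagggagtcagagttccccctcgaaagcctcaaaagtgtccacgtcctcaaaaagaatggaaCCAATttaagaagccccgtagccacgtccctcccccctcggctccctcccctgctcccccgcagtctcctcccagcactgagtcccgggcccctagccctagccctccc
Col3a1, chr1:45311288-45311537, plus strand: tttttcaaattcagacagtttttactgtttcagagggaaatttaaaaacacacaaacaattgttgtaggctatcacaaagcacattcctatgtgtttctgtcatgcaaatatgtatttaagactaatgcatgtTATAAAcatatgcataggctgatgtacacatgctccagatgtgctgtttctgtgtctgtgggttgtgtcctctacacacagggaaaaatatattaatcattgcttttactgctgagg

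The Cxcl12 window held 5 GC boxes, the nearest beginning 11 bases before the start, and the Sparc window held none of the motifs. The Col1a2 window held 2 GC boxes and a CCAAT, and the Col3a1 window a TATAAA that began 117 bases before the start. Neither C/EBP form was found in these 4 windows. In all, 9 windows of the 8 genes were searched, and that of Pdgfra, not shown, held TTGCATAA, which began 118 bases before its start. Of 32851 windows of the same length, 9.56% held TTGCNNAA, 8.09% TTACNNAA, 12.4% TATAAA, 32.7% GGGCGG and 33.9% CCAAT. A match describes these letters and is not evidence of a bound site.

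Cxcl12 encodes the chemokine that retains HSCs in the marrow. Cxcl12 (probe set 10541075) measured 5.22, 7.07 and 5.99 on the log2 scale on fl/fl 1 to 3, against 7.34, 7.03, 7.07 and 7.53 on Δ/Δ 1 to 4. The Cebpa Δ/Δ arrays lay close together and high, while the Cebpa fl/fl arrays were spread over almost the whole range, so that the groups overlapped through fl/fl 2. The means were 6.10 ± 0.93 (SD, n = 3) and 7.24 ± 0.24 (SD, n = 4), a log2 fold change of 1.15 (SE 0.41, limma p 0.0300), or 2.22-fold with a 95% interval from 1.11 to 4.42. The exact two-sided permutation p was 0.0857, where 7 arrays allow no p below 0.0286. Without fl/fl 2 the log2 fold change was 1.64, and without fl/fl 1 it was 0.71 (limma p 0.0813). Cxcl12 also missed the threshold without fl/fl 3 (1.10), Δ/Δ 1 (1.11), Δ/Δ 3 (1.20) or Δ/Δ 4 (1.05), at limma p-values from 0.0519 to 0.0840 over the 5 fits that lost it.

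Sparc encodes SPARC (osteonectin), a secreted protein that binds collagen and calcium. Sparc (probe set 10386058) measured 5.83, 7.25 and 5.54 on fl/fl 1 to 3, against 7.13, 7.33, 7.92 and 7.13 on Δ/Δ 1 to 4. As for Cxcl12, fl/fl 2 stood above both other Cebpa fl/fl arrays and among the Cebpa Δ/Δ arrays. The means were 6.21 ± 0.91 (SD, n = 3) and 7.38 ± 0.37 (SD, n = 4), a log2 fold change of 1.17 (SE 0.43, limma p 0.0333), or 2.25-fold with a 95% interval from 1.09 to 4.64. The exact two-sided permutation p was 0.0857. Sparc kept its call only without fl/fl 2, where the log2 fold change was 1.69. It lost the call without any of the other 6 arrays, at values of 0.98 without fl/fl 1, 0.84 without fl/fl 3, 1.25 without Δ/Δ 1 or Δ/Δ 4, 1.19 without Δ/Δ 2 and 0.99 without Δ/Δ 3 (limma p 0.0518 to 0.118).

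Pdgfrb, the gene for the beta receptor of platelet-derived growth factor and a marker of pericytes and stromal cells, was the one gene of the 10 whose arrays did not overlap between genotypes. This compares with 3.51% of all genes that lay higher without overlap and 2.46% that lay lower. Pdgfrb (probe set 10456046) measured 5.20, 5.57 and 5.51 on fl/fl 1 to 3, against 6.22, 6.60, 6.59 and 6.07 on Δ/Δ 1 to 4. The lowest Cebpa Δ/Δ array, Δ/Δ 4, stood above the highest Cebpa fl/fl array, fl/fl 2. The means were 5.42 ± 0.20 (SD, n = 3) and 6.37 ± 0.27 (SD, n = 4), a log2 fold change of 0.94 (SE 0.17, limma p 0.00101), or 1.93-fold with a 95% interval from 1.46 to 2.54. The exact permutation p was 0.0286, the smallest that 7 arrays allow, and Pdgfrb ranked 56 of 19938 genes by limma's p. Its log2 fold change stayed between 0.83 and 1.05 whichever array was left out.

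The other receptors were not called. Pdgfra, the gene for the alpha receptor, measured between 4.18 (fl/fl 1) and 4.33 (Δ/Δ 2) on the 7 arrays, and 8.11% of all genes had a smaller range. Its log2 fold change was 0.03, with a 95% interval from -0.09 to 0.15. Lepr, the gene for the leptin receptor, measured 3.45, 3.64 and 3.13 in Cebpa fl/fl and 3.95, 3.48, 3.48 and 3.63 in Cebpa Δ/Δ HSCs, with Δ/Δ 1 highest, fl/fl 3 lowest and the other 5 arrays between them. The log2 fold change of Lepr was 0.23 (95% interval -0.17 to 0.62), an interval that reaches past 1.5-fold upwards. All 7 arrays lay below the 25th percentile of gene values (4.43) for both Pdgfra and Lepr, so that little signal stood behind either, and a flat signal at this level sets no limit on a change of the transcript. Whether the changes of Pdgfra and Pdgfrb differ from each other was not tested.

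Kitl, the gene for stem cell factor, was likewise dim and not called. Kitl measured 3.06 on fl/fl 1, fl/fl 3 and Δ/Δ 1 to 3, the same value to every deposited digit, 2.95 on fl/fl 2 and 3.34 on Δ/Δ 4. Thus 5 of 7 arrays shared 1 value and the log2 fold change of 0.11 (95% interval -0.10 to 0.32) came from the other two. Such repeats are common in the file: 63.6% of genes had the same value on at least 2 arrays, and 8.92% on at least 5. They were more frequent in genes below the median level (81.3%) than above it (45.8%). Of the 10 stromal niche genes, 7 had a repeated value, and Cxcl12 was the same on fl/fl 2 and Δ/Δ 3, as Sparc was on Δ/Δ 1 and Δ/Δ 4. Kitl had 3 distinct values over the 7 arrays, and Pdgfra and Lepr had 6 each.

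The 3 fibrillar collagen genes were nearly level across all 7 arrays. Col1a1 and Col1a2 encode the chains of type I collagen, the main protein of bone. Col1a1 measured 5.88, 5.80 and 5.97 in Cebpa fl/fl and 5.94, 5.94, 5.96 and 5.97 in Cebpa Δ/Δ HSCs, a log2 fold change of 0.07 (95% interval -0.06 to 0.20). Col1a2 measured 5.82, 5.85 and 5.85 against 5.83, 5.84, 5.94 and 5.94, a log2 fold change of 0.05 (95% interval -0.07 to 0.17). In both genes the groups overlapped, and no array stood out. Col3a1, the gene for type III collagen, measured 5.31, 5.31 and 5.44 against 5.18, 5.31, 5.44 and 5.31, a log2 fold change of -0.04 (95% interval -0.22 to 0.14). Ranges over the 7 arrays were 0.17, 0.13 and 0.26 for Col1a1, Col1a2 and Col3a1, and 10.7%, 6.38% and 20.9% of all genes had smaller ones. All 3 intervals lie inside a 1.5-fold change of the signal in either direction. The genes lay near or below the median gene level, with 50.8%, 50.1% and 41.6% of all genes lower in mean. Without a detection call in the file, a flat signal at this level sets no limit on a change of the transcript.

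Bgn, the gene for the small proteoglycan biglycan, was the one gene of the 10 with a lower mean in Cebpa Δ/Δ HSCs by more than 0.1 log2 units. Bgn measured 7.86, 8.66 and 8.46 on fl/fl 1 to 3, against 7.74, 8.50, 7.04 and 7.78 on Δ/Δ 1 to 4. Only Δ/Δ 2 lay among the higher Cebpa fl/fl arrays, and Δ/Δ 3 was lowest. The means were 8.32 ± 0.41 (SD, n = 3) and 7.77 ± 0.60 (SD, n = 4), a log2 fold change of -0.56 (SE 0.36, limma p 0.165), and the exact permutation p was 0.171. Without Δ/Δ 2 Bgn was lower at the study's thresholds, with a log2 fold change of -0.80 (limma p 0.0393), and without Δ/Δ 3 the value was -0.32. Bgn thus lay opposite in sign to Sparc, the other matrix protein gene of the 10.

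**Figure D2:**
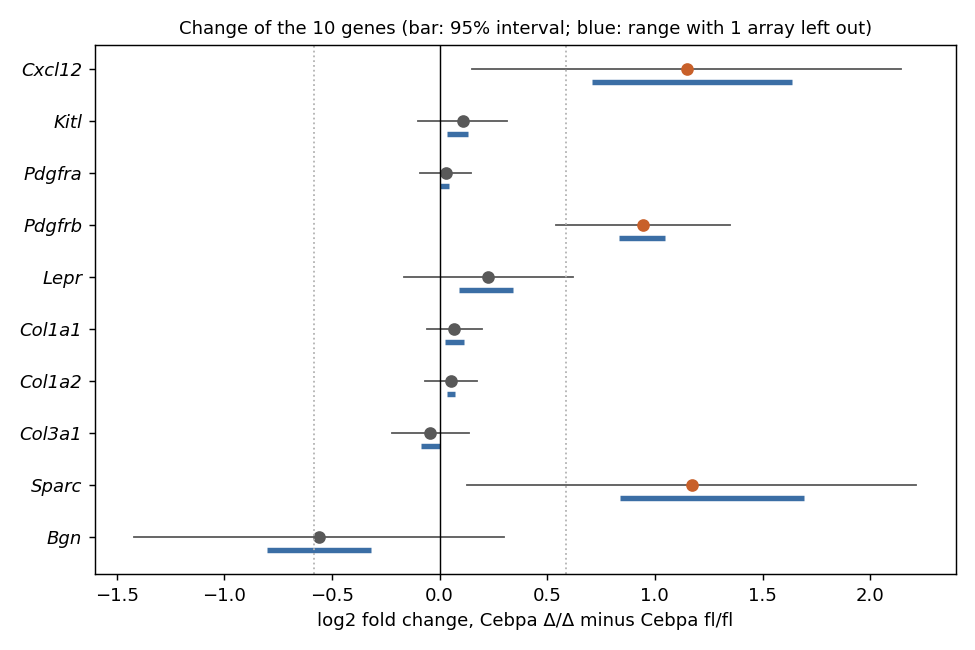
Log2 fold change (horizontal axis, Cebpa Δ/Δ minus Cebpa fl/fl) of the 10 genes; points are limma estimates, orange where past the study's thresholds, grey bars their 95% intervals, blue bars the range when each array is left out in turn, and dotted lines a 1.5-fold change. The interval of Pdgfrb (0.54 to 1.35) is narrower than those of Cxcl12 and Sparc, and the intervals of the collagen genes and Pdgfra lie within 0.22 of 0.

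Other stromal and matrix genes were read as lists. The 5 lists (mesenchymal stromal markers, osteoblast markers, other collagens, collagen processing and other matrix proteins) held 107 measured genes, with a median log2 fold change of 0.01. At the study's thresholds 1 gene was higher and 0 lower, against 1.57% and 0.617% of all genes. The gene called was Serping1, which encodes the C1 inhibitor and is high in marrow stroma but is made by other cells too (0.79, SE 0.20, limma p 0.00669). It measured 5.12, 5.75 and 5.13 in Cebpa fl/fl and 5.83, 6.26, 6.04 and 6.38 in Cebpa Δ/Δ HSCs, without overlap. By limma 5 of the 107 genes had an unadjusted p under 0.05, against 1492 of all 19938 genes, and 0 passed after adjustment.

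All 24 measured collagen genes outside the 10 lay between -0.14 and 0.14 in log2 fold change, with 12 of them positive, 0 called and 0 at an unadjusted limma p under 0.05. In 22 of them the range over the 7 arrays was under 0.5 log2 units, and 8 of the 24 had a mean above the median gene level. The lowest p belonged to Col16a1 (-0.14, limma p 0.0506) and the next to Col6a1 (0.14, limma p 0.0692). Among 21 genes of collagen processing 0 were called. Plod2, a lysyl hydroxylase, had the lowest p there (-0.40, SE 0.15, limma p 0.0336) at a change short of 1.5-fold. P4hb and Ppib, which encode protein-folding enzymes, had log2 fold changes of 0.08 and 0.07.

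Of 25 mesenchymal stromal markers, 2 had a mean above the median gene level and 5 lay below the 25th percentile on all arrays. Those above were the integrin gene Itgav, at 7.22 in Cebpa fl/fl and 6.95 in Cebpa Δ/Δ HSCs, and the adhesion gene Mcam, at 5.91 and 6.00. The mean level of the list was 4.78 on each Cebpa fl/fl array and lay between 4.80 and 4.94 on the Cebpa Δ/Δ arrays. RMA values do not reach 0, and the file gives no detection call. Of 9 measured osteoblast markers, 1 lay above the median gene level. Ibsp, the gene for bone sialoprotein, had a log2 fold change of 1.32 (SE 0.57, limma p 0.0550), with 6.20 and 6.07 on Δ/Δ 1 and Δ/Δ 4, 4.29 and 4.28 on Δ/Δ 2 and Δ/Δ 3, and between 3.62 and 4.12 in Cebpa fl/fl HSCs. Among 28 other matrix protein genes 0 were called, and Fbln5, which encodes fibulin 5, had the lowest p (0.22, SE 0.08, limma p 0.0371).

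**Figure D3:**
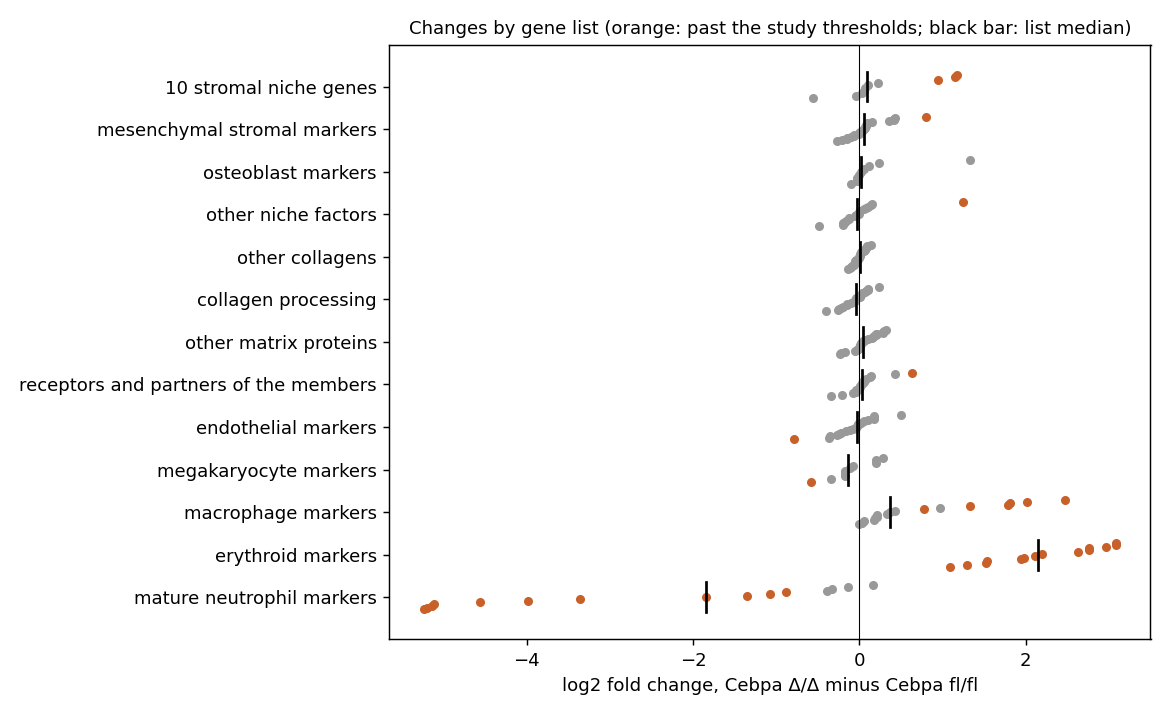
Log2 fold changes (horizontal axis, Cebpa Δ/Δ minus Cebpa fl/fl) of the genes of each list (rows; genes are spread upwards by value within a row), orange where past the study's thresholds, with the list median as a black bar. The collagen and matrix lists lie close to 0, while 14 of 14 erythroid markers and 6 of 17 macrophage markers are higher and 11 of 15 mature neutrophil markers lower.

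The list of partners through which these genes act held 17 measured receptors, ligands and partners, with a median log2 fold change of 0.03. At the study's thresholds 1 was higher and 0 lower, against 1.57% and 0.617% of all genes. The gene called was Dpp4, the gene for a membrane protease that cleaves CXCL12 (0.63, SE 0.25, limma p 0.0447). It measured 6.88, 7.14 and 6.79 in Cebpa fl/fl and 7.80, 7.74, 7.84 and 6.88 in Cebpa Δ/Δ HSCs, with Δ/Δ 4 among the Cebpa fl/fl arrays. The call of Dpp4 remained only without Δ/Δ 4 (0.86) among the fits that left out 1 array, and the other 6 fits gave values from 0.54 to 0.73. Cxcr4, the CXCL12 receptor gene, had a log2 fold change of -0.08 (SE 0.32), with 10.30, 9.47 and 9.12 against 9.38, 9.80, 9.91 and 9.11. Kit, the receptor gene for the product of Kitl, measured 10.42, 10.39 and 10.46 against 10.01, 10.38, 9.75 and 10.20. All Cebpa Δ/Δ arrays lay below all Cebpa fl/fl arrays, but only just (10.378 on Δ/Δ 2 against 10.387 on fl/fl 2). Of all genes, 2.46% lay lower without overlap. The log2 fold change of Kit was -0.34 (limma p 0.0568) and did not reach 1.5-fold. Pdgfa and Pdgfc, ligand genes of the PDGF receptors, had log2 fold changes of 0.13 and 0.43 (limma p 0.120 and 0.112). The other PDGF ligand genes of the list, Pdgfb and Pdgfd, were measured and not called.

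Of 18 other niche factors 1 was higher and 0 lower, against 1.57% and 0.617% of all genes, with a median of -0.03. Vcam1, the gene for an adhesion molecule of stromal cells, endothelium and marrow macrophages, measured 5.79, 5.88 and 5.21 in Cebpa fl/fl and 7.55, 6.22, 7.33 and 6.39 in Cebpa Δ/Δ HSCs. The groups did not overlap, and Δ/Δ 1 and Δ/Δ 3 stood above Δ/Δ 2 and Δ/Δ 4. The log2 fold change was 1.24 (SE 0.38, limma p 0.0156), and without fl/fl 3 it was 1.03 (limma p 0.0616). Angpt1, the angiopoietin gene that HSCs themselves express, had a log2 fold change of -0.49 (SE 0.16, limma p 0.0207), short of 1.5-fold.

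Markers of other cells, in lists also chosen with earlier results known, moved with the genotype as well. Their counts are descriptive and stand beside 1.57% of all genes higher and 0.617% lower. All 14 erythroid markers were higher at the study's thresholds (log2 fold changes 1.08 to 3.08), 6 of 17 macrophage markers were higher (median 0.37) and 11 of 15 mature neutrophil markers lower (median -1.84). Of the macrophage markers, Spic, a transcription factor gene of iron-recycling macrophages, had a log2 fold change of 2.48 (SE 0.34), and the complement gene C1qc one of 2.02 (SE 0.43). Scores of the macrophage list, the mean deviation of its genes from their 7-array means, lay between -0.51 and -0.39 in Cebpa fl/fl and were 0.70, 0.01, 0.49 and 0.13 in Cebpa Δ/Δ 1 to 4. Those of the erythroid list were -1.68, -0.62 and -1.50 on fl/fl 1 to 3, against 1.58, 0.47, 1.35 and 0.39 on Δ/Δ 1 to 4. In Cebpa fl/fl HSCs the erythroid score was highest on fl/fl 2, the array on which Cxcl12 and Sparc were also highest, as was the neutrophil score (1.99, against 1.65 and 0.75). So were the mesenchymal stromal, osteoblast, collagen processing, other matrix protein, other niche factor and megakaryocyte scores, some of them by very little. On fl/fl 1 to 3 the mesenchymal stromal scores were -0.051, -0.045 and -0.050. Those of collagen processing were 0.082, 0.085 and -0.060, and those of other matrix proteins -0.052, -0.027 and -0.035. The macrophage, endothelial, HSC and other collagen scores were highest on fl/fl 3, and that of the receptors and partners on fl/fl 1. Of 20 endothelial markers 0 were higher and 1 lower (Tie1, -0.79, SE 0.21), and of 10 megakaryocyte markers 0 were higher and 1 lower (Pear1, -0.59, SE 0.20). The part of these markers in the values of Cxcl12, Sparc and Pdgfrb was not tested.

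**Figure D4:**
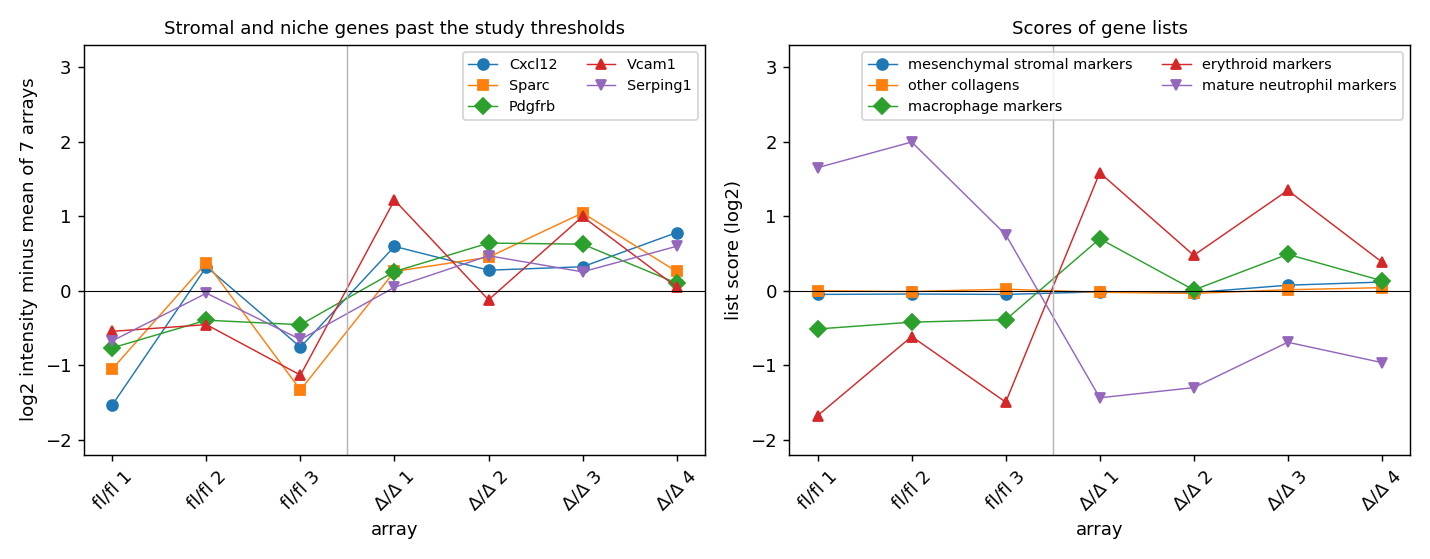
Left, log2 intensity minus the mean of the 7 arrays (vertical axis) for Cxcl12, Sparc, Pdgfrb, Vcam1 and Serping1 on each array (horizontal axis); right, list scores on the same arrays, with thin lines joining points only to guide the eye. Vcam1, the erythroid list and the macrophage list are highest on Δ/Δ 1 and Δ/Δ 3, Cxcl12 is highest on Δ/Δ 4, Sparc on Δ/Δ 3 and Pdgfrb on Δ/Δ 2, and the stromal marker and collagen scores stay within 0.12 of 0.

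The 3 called genes did not share an order of the arrays. Within Cebpa Δ/Δ HSCs, Cxcl12 was highest on Δ/Δ 4 and lowest on Δ/Δ 2, Sparc was highest on Δ/Δ 3 and lowest on Δ/Δ 1 and Δ/Δ 4, and Pdgfrb was highest on Δ/Δ 2 and lowest on Δ/Δ 4. Within Cebpa fl/fl HSCs, fl/fl 2 was highest for all 3. Over the 10 genes, fl/fl 1 was the lowest array for 4 and the highest for 0, and Δ/Δ 4 was the highest for 3 and the lowest for 0.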

How the data were processed

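The authors hybridised RNA of sorted HSCs to 7 Affymetrix Mouse Gene ST arrays and deposited linear intensity values computed with RMA in Partek Genomics Suite; the processing notes name RMA and affy. RMA includes quantile normalisation, which hides a difference in total RNA. The genome build of the probe sets is not given in the sources used here. The log2 was taken here with no pseudocount (values 1.51 to 9840).

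Of 35556 probe sets, 21789 carried 1 symbol, 1621 several and 12146 none here. Symbols were updated by Entrez number for 21698, and the brightest probe set was used for 999 genes with several. Genotypes were compared with limma 3.58.1 (R 4.3.3), genotype as the only term, with Benjamini-Hochberg adjustment over 19938 genes. The study names no test for its arrays. Single values were also compared by exact permutation over 35 splits. The limma fit was tested on simulated data with known changes. Per the design text each array is 1 mouse, although the extraction note speaks of triplicates. The small number of arrays limits precision, and 0 columns of values were left unused.

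The 10 genes and all gene lists were chosen with earlier results of these data known. Named besides the 10 were genes past the thresholds, the 4 smallest p-values and the 3 brightest genes of each list; lists of blood cells are given mainly by counts and ranges. Alternatives were median scaling, cyclic loess, a pseudocount of 16, low values raised to percentile 25, genes above the median level, array weights, the mean of a gene's probe sets, all probe sets, a replicate block and arrays left out.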

Additional observations from a re-analysis of the deposited data

Results flagged for a closer look

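Of 28 sets of values tested, 3 had 1 Cebpa Δ/Δ array far from the other 3, by a gap that, divided by the whole range, exceeded the 95% critical value of Dixon. Chance gives this for about 1 group in 20. Kitl had a ratio of 1, because Δ/Δ 1 to 3 held 1 value (3.06) and Δ/Δ 4 measured 3.34. Pdgfra had a ratio of 0.909, with Δ/Δ 2 at 4.33 and the other 3 arrays between 4.22 and 4.23. Both genes were dim and repeated values were common at that level. The mean deviation of Sparc and Bgn  had a ratio of 0.915, at 0.47 on Δ/Δ 2 and no more than 0.04 on the others.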

How the results depend on the processing

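Pdgfrb kept its direction and its call under all 17 alternatives (log2 fold change 0.74 to 1.05), but no adjusted p of Pdgfrb fell below 0.146. Cxcl12 and Sparc kept their direction throughout and lost the call in 7 and 10 of 17. The same numbers occur in both genotypes, but same-numbered arrays did not deviate together (correlations of -0.02, 0.10 and -0.18), so the numbers were not taken as pairs. Differently numbered arrays correlated from -0.20 (fl/fl 1 with Δ/Δ 4) to 0.33 (fl/fl 3 with Δ/Δ 4), with 0.27 for fl/fl 1 with Δ/Δ 3. Whether arrays share a batch that the numbers do not follow was not tested. With the replicate number as a block, 1 of the 10 genes was higher, with Cxcl12 at 1.05 (limma p 0.106) and Sparc at 1.25 (limma p 0.0814). Leaving out both arrays of lowest correlation (fl/fl 1, Δ/Δ 3) also gave 1, with Cxcl12 at 0.77 and Sparc at 0.80, and higher genes numbered 15 rather than 24 in the other lists and 169 rather than 314 among all genes. Sparc lost the call with low values raised (1.17, limma p 0.0530) and with array weights (1.03, limma p 0.0509). With 1 array left out, log2 fold changes ran from 0.71 to 1.64 for Cxcl12, from 0.84 to 1.69 for Sparc and from -0.80 to -0.32 for Bgn, and Col3a1 ran from -0.0859 to 0.00074, the positive value being that without fl/fl 3. Counts among the 10 genes then ran from 1 to 3 higher, 0 to 1 lower, 1 to 4 non-overlapping higher and 0 to 1 non-overlapping lower. Without fl/fl 2 the 4 were Cxcl12, Sparc, Pdgfrb and Lepr. Lepr was dim and separated only narrowly there (3.478 on Δ/Δ 2 and Δ/Δ 3 against 3.453 on fl/fl 1, limma p 0.102). Fewer arrays make non-overlap more frequent, and the share of all genes without overlap was not computed for these fits, so these counts are descriptive only. Lower genes among all 19938 numbered 75 with a pseudocount of 16, against 123. The fit over all probe sets gave 499 lower of 35556 probe sets, a larger and partly unnamed set, so that count is not set against the 123. Adjusted calls among all genes, 0 in the fit as reported, numbered 5 with genes above the median level and 0 to 3 with 1 array left out. With low values raised to the percentile 25, Kitl, Pdgfra and Lepr had no value above it on any array and gave no estimate. The mean over probe sets changed nothing for the 10 genes, which have 1 each. The cause of these shifts was not tested.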

Other observations

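Single stromal genes differed between the Cebpa Δ/Δ arrays, and those named here were chosen after their values were seen. Cxcl12 was highest on Δ/Δ 4 and Δ/Δ 1 (7.53 and 7.34), Ibsp was at 6.07 and 6.20 on the same arrays and at 4.29 or below on the other 5, and Lepr, though dim, was highest on Δ/Δ 1 (3.95). Adipoq, the adiponectin gene, which leptin receptor-positive stromal cells also express, measured 5.36 on Δ/Δ 4 and between 3.61 and 4.07 on the other 6 arrays. On Δ/Δ 1 Adipoq was at 3.96, within that range. Over all 25 mesenchymal stromal markers the list scores on Δ/Δ 1 to 4 were -0.02, -0.03, 0.07 and 0.12, and over the 9 osteoblast markers, which include Ibsp, they were 0.16, -0.05, -0.03 and 0.22. Ibsp had the largest log2 fold change of the osteoblast list, 1.32 against a list median of 0.02. Osteoblast scores without Ibsp were not computed. The erythroid and macrophage scores were highest on Δ/Δ 1, followed by Δ/Δ 3. Sparc and Pdgfrb were not highest on Δ/Δ 1 or Δ/Δ 4, and the collagen genes Col1a1, Col1a2 and Col3a1 differed by at most 0.26 log2 units between any 2 arrays of the series.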
